A study of Canis lupus familiaris with 4 samples.

Results

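The insulin-like growth factor genes described here are the ligands IGF1 and IGF2, the receptors IGF1R, IGF2R and INSR, the adaptor IRS2, the pappalysin proteases PAPPA and PAPPA2, and the pappalysin inhibitor STC2. They were taken by gene name from the count tables of canine mammary tissue, which held all 9 among 11277 genes. RNA had been sequenced in 4 libraries, T1 and T2 from mammary ductal carcinoma, and C1 and C2 from non-tumor mammary tissue next to it (the control). The tissue came from the radical mastectomies of 6 intact female dogs of different breeds, aged 5 to 14 years, and each library was a pool of RNA from 3 dogs. Tumor and adjacent tissue of pool 1 (C1 and T1) came from the same dogs, as did those of pool 2 (C2 and T2). The replicates are thus pools, and the spread between single dogs cannot be seen. The adjacent tissue was taken beside a tumor, so it is not mammary tissue of healthy animals.

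IGF1 and IGF2 are secreted peptides that signal growth and survival through IGF1R, a receptor tyrosine kinase of which INSR, the insulin receptor, is the closest relative. IGF2R lacks such a kinase and carries IGF2 into the cell for breakdown, and IRS2 links the activated kinase receptors to PI3K. In tissue most IGF is held by binding proteins, and the pappalysins free it by cutting some of these proteins, while stanniocalcins such as STC2 inhibit the pappalysins. In the mammary gland, IGF1 made under the control of growth hormone takes part in the growth of the ducts.

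Library totals ranged from 3236218 to 35496260 counts and were lower in both pool 2 libraries. Levels are CPM (a gene's share of the counts of its library, after the TMM correction for differences in library composition). They are not per gene length, and they may include reads from introns, since the gene lengths in the tables lie near whole gene spans. A gene was called up- or downregulated where edgeR's quasi-likelihood test of carcinoma against control gave it an adjusted p under 0.05 together with a log2 fold change of 1 or more in size. By this rule 9.86% of all genes were called, 4.62% upregulated and 5.24% downregulated. Both tissues held epithelial transcripts, among them CDH1, which encodes E-cadherin, at 592 CPM in control and 607 CPM in carcinoma, and KRT19, which encodes a keratin, at 230 CPM and 268 CPM (means of 2 pools). Of the 11 measured luminal markers 7 were not called, both of these among them, while ELF5, a transcription factor gene of the secretory lineage (log2 fold change −2.48), and the hormone receptor genes ESR1 (−1.87) and PGR (−1.14) were downregulated and PROM1 was upregulated (2.69). In bulk tissue, fewer cells of a type and less RNA per cell cannot be told apart.

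Of the 9 genes, 4 were downregulated in carcinoma (IGF1, IGF2, IGF1R and PAPPA2), 2 were upregulated (PAPPA and STC2) and 3 were not called (IGF2R, INSR and IRS2). For 8 of the 9, both carcinoma libraries lay on one side of both controls, which was so for 57.6% of all genes. IRS2 was the one gene whose groups overlapped. In a fit with the pool as a replicate block, which compares each carcinoma with the adjacent tissue of the same dogs, the same 4 genes were called lower and the same 2 higher, while 13.9% of all genes were called, 7.09% higher and 6.83% lower.

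**Figure D1:**
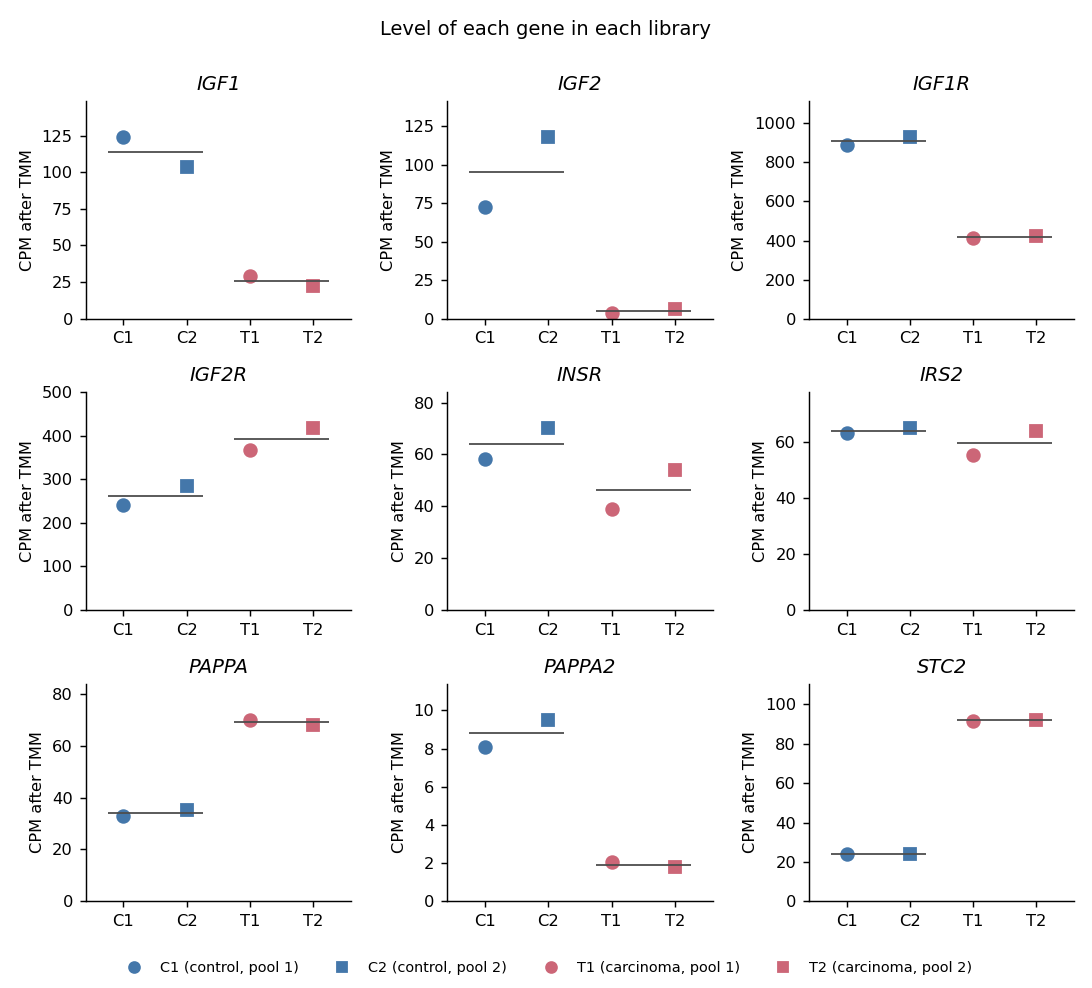
Level of each gene (y axis, CPM after TMM, starting at 0) in each of the 4 libraries (x axis), with circles for pool 1, squares for pool 2 and a line at each group mean. The carcinoma libraries lie below both controls for IGF1, IGF2, IGF1R, INSR and PAPPA2 and above both for IGF2R, PAPPA and STC2.

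Both ligand genes were lower in carcinoma, and IGF2 had the largest change of the 9 genes. IGF2, the ligand best known for its role in fetal growth, was read at 72.5 CPM in C1 and 118 CPM in C2, against 3.78 CPM in T1 and 6.54 CPM in T2. The controls were far above the carcinomas, although they also differed from each other, with the pool 2 library the higher one in each tissue. The mean ± SD was 95.2 ± 32.2 CPM in the 2 controls and 5.16 ± 1.96 CPM in the 2 carcinomas, 18.5-fold lower, with a log2 fold change of −4.37 ± 0.39 (SE) at an adjusted p of 0.00413. Of the genes tested, 51 had a lower log2 fold change. The T2 value rests on 22 counts, with a 95% Poisson interval of 4.10 to 9.91 CPM for counting error alone, and its upper end lies well under the lower control.

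IGF1, the ligand that growth hormone induces, was read at 124 CPM in C1 and 103 CPM in C2, against 29.2 CPM in T1 and 22.0 CPM in T2. Here pool 2 was the lower one in each tissue, and the groups did not overlap. The mean ± SD was 114 ± 14.5 CPM in the 2 controls and 25.6 ± 5.06 CPM in the 2 carcinomas, 4.44-fold lower, with a log2 fold change of −2.12 ± 0.19 (SE) at an adjusted p of 0.00405.

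Many markers of 3 other cell types were downregulated along with the ligands, while few markers of 3 more were called. Of 20 measured striated muscle markers, 18 were downregulated, and their summed level was 2275 CPM in C1 and 3476 in C2 against 67.6 in T1 and 104 in T2. Of 16 measured fibroblast markers, 9 were downregulated, with sums of 8794 and 9840 CPM in the controls against 3142 and 4140 in the carcinomas. DCN, which encodes the matrix proteoglycan decorin, and PDGFRB, which encodes a platelet-derived growth factor receptor, were among those that fell, the latter not called with library totals in place of TMM (log2 fold change −1.85, adjusted p = 0.0539). Of 9 measured blood endothelial markers, 5 were downregulated, with sums of 814 and 805 CPM in control and 432 and 417 CPM in carcinoma. Of 8 measured adipocyte markers 1 was upregulated and 1 downregulated (median log2 fold change −0.06), and of 9 measured macrophage markers 1 was downregulated (median −0.29). Adipocyte sums were 264 and 275 CPM in the controls against 174 and 217 in the carcinomas. Macrophage sums were 535 and 558 CPM against 366 and 411. Log2 fold changes were negative for 4 and positive for 4 adipocyte markers, and negative for 7 and positive for 2 macrophage markers. Smooth muscle and myoepithelial sums rose, from 1444 and 1619 CPM to 2041 and 2396, with 1 of 11 measured markers upregulated. Every one of these markers had counts in at least 1 carcinoma library. The part of these cell types in the fall of IGF1 and IGF2 was not tested.

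Among the receptors, IGF1R was downregulated, while IGF2R and INSR did not pass the test. IGF1R, the receptor that carries the growth signal of both ligands, was read at 891 CPM in C1 and 930 CPM in C2, against 412 CPM in T1 and 421 CPM in T2. The libraries of a tissue lay close together and far from the other tissue. The mean ± SD was 910 ± 27.7 CPM in the 2 controls and 417 ± 6.02 CPM in the 2 carcinomas, 2.18-fold lower, with a log2 fold change of −1.13 ± 0.11 (SE) at an adjusted p of 0.00483.

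IGF2R, the receptor that removes IGF2 and also sorts lysosomal enzymes, was read at 240 CPM in C1 and 284 CPM in C2, against 367 CPM in T1 and 417 CPM in T2. Both carcinomas were above both controls, with a log2 fold change of 0.58 (95% interval 0.22 to 0.94) that missed the threshold on p (adjusted p = 0.0600) as well as the one on size. In the fit with the replicate block the log2 fold change was 0.59 (95% interval 0.48 to 0.69), still under 1. INSR was read at 58.4 CPM in C1 and 70.0 CPM in C2, against 38.9 CPM in T1 and 53.8 CPM in T2. Its carcinoma libraries were both below the controls, but the gap between T2 and C1 was smaller than the gap between the carcinomas. The log2 fold change was −0.48 (95% interval −1.02 to 0.05, adjusted p = 0.210), and with the replicate block it was −0.53 (95% interval −0.69 to −0.37). A fall of INSR as large as 2-fold lies within the first interval and outside the second. The fit with the replicate block leaves 1 residual degree of freedom, at a common dispersion of 0.00216. With 2 pools its narrow intervals, that of IGF2R among them, cannot exclude such a change.

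IRS2, the adaptor downstream of IGF1R and INSR, was read at 63.0 CPM in C1 and 64.7 CPM in C2, against 55.3 CPM in T1 and 63.9 CPM in T2. T2 lay between the controls, and only T1 was below both. The log2 fold change was −0.11 (95% interval −0.45 to 0.24, adjusted p = 0.647). The related adaptor gene IRS1 had no row in the tables used here and was not analysed.

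The pappalysin genes moved in opposite directions, and the inhibitor STC2 was upregulated. PAPPA, which encodes a protease that cuts IGFBP4 and IGFBP5, was read at 32.7 CPM in C1 and 35.2 CPM in C2, against 69.9 CPM in T1 and 68.1 CPM in T2. The carcinomas were 2.03-fold above the controls, with a mean of 69.0 ± 1.27 CPM (SD, n = 2) against 34.0 ± 1.78 CPM and a log2 fold change of 1.03 ± 0.13 (SE) at an adjusted p of 0.00965. This value sat at the threshold of 1. The call was lost without C1 (log2 fold change 0.92, adjusted p = 0.0689), without T1 (0.96, adjusted p = 0.0635), and without the 10 most abundant features in the library totals (0.98, adjusted p = 0.0117). Carcinoma was the higher tissue in each of these fits.

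PAPPA2, which encodes a protease that cuts IGFBP3 and IGFBP5, was the least counted of the 9 genes and was downregulated. It was read at 8.09 CPM in C1 and 9.50 CPM in C2, against 2.06 CPM in T1 and 1.78 CPM in T2, the last from 6 counts (95% Poisson interval 0.655 to 3.88 CPM). Even the upper end of that interval was below both controls. The mean ± SD was 8.80 ± 0.997 CPM in the 2 controls and 1.92 ± 0.195 CPM in the 2 carcinomas, 4.58-fold lower, with a log2 fold change of −2.14 ± 0.31 (SE) at an adjusted p of 0.0134. Without T1 the call was lost (log2 fold change −2.33, adjusted p = 0.0608).

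STC2, which encodes a secreted glycoprotein that binds and blocks PAPPA, was read at 24.2 CPM in C1 and 24.1 CPM in C2, against 91.6 CPM in T1 and 92.2 CPM in T2. The libraries of each tissue were nearly equal, closer together than for any other of the 9 genes. The mean ± SD was 24.1 ± 0.0508 CPM in the 2 controls and 91.9 ± 0.443 CPM in the 2 carcinomas, 3.81-fold higher, with a log2 fold change of 1.93 ± 0.12 (SE) at an adjusted p of 0.00209. The spread between these pools was smaller than counting error, since the 104 counts of C2 give a 95% Poisson interval of 19.7 to 29.2 CPM. STC2 is known to be induced by hypoxia and by stress of the endoplasmic reticulum. Of 13 measured hypoxia response genes, 5 were upregulated and 8 did not pass, with sums of 596 and 628 CPM in control against 833 and 965 CPM in carcinoma. Those called included VEGFA, an angiogenic growth factor gene (log2 fold change 2.03, adjusted p = 0.0153), and BNIP3, a mitophagy gene (2.05, adjusted p = 0.0117). Without C1, 1 hypoxia response gene was upregulated, and VEGFA (1.74, adjusted p = 0.0512) and BNIP3 (1.89, adjusted p = 0.0601) lost their calls. With library totals in place of TMM, 3 were. Of 11 measured genes of the unfolded protein response, 0 were called by edgeR and 0 by DESeq2, while 3 had an unadjusted p under 0.05. The log2 fold change was positive for 8 of these genes and negative for 3. Cartilage markers rose as well, 6 of 11 measured, with sums of 177 and 185 CPM in control against 1939 and 2270 CPM in carcinoma. Among them were ACAN, the gene of the proteoglycan aggrecan (log2 fold change 7.34, adjusted p = 0.00182), and COL2A1, the gene of type II collagen (5.16, adjusted p = 0.00478). The part of hypoxia, of stress of the endoplasmic reticulum and of cartilage-forming cells in the rise of STC2 and PAPPA was not tested.

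**Figure D2:**
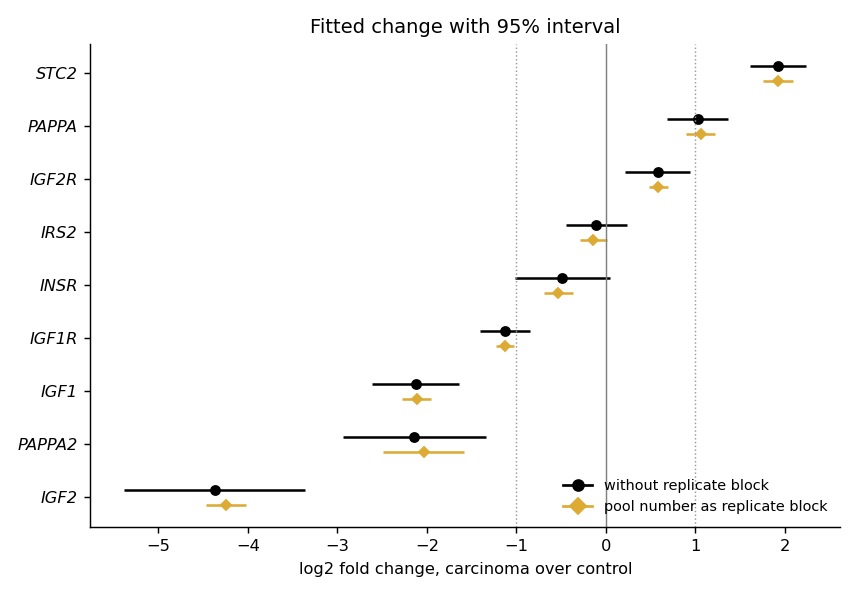
Fitted log2 fold change of carcinoma over control (x axis) for each of the 9 genes (rows), with bars for the 95% interval, without a replicate block (black circles) and with the replicate block on pools (yellow diamonds). Dotted lines mark the threshold of 1 in either direction. IGF2 lies lowest at −4.37. Without the replicate block the bars of PAPPA (1.03), IGF1R (−1.13) and INSR (−0.48) each cross a dotted line.

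The direction was the same in both pools for all 9 genes. Between T1 and C1 the log2 ratio was −4.25 for IGF2, −2.09 for IGF1, −1.11 for IGF1R, −1.96 for PAPPA2, 1.09 for PAPPA and 1.92 for STC2. Between T2 and C2 the same ratios were −4.17, −2.23, −1.14, −2.40, 0.95 and 1.93. The largest gap between the pools was that of PAPPA2, whose T2 count was the lowest. IRS2 came nearest to 0, at −0.19 in pool 1 and −0.02 in pool 2.

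**Figure D3:**
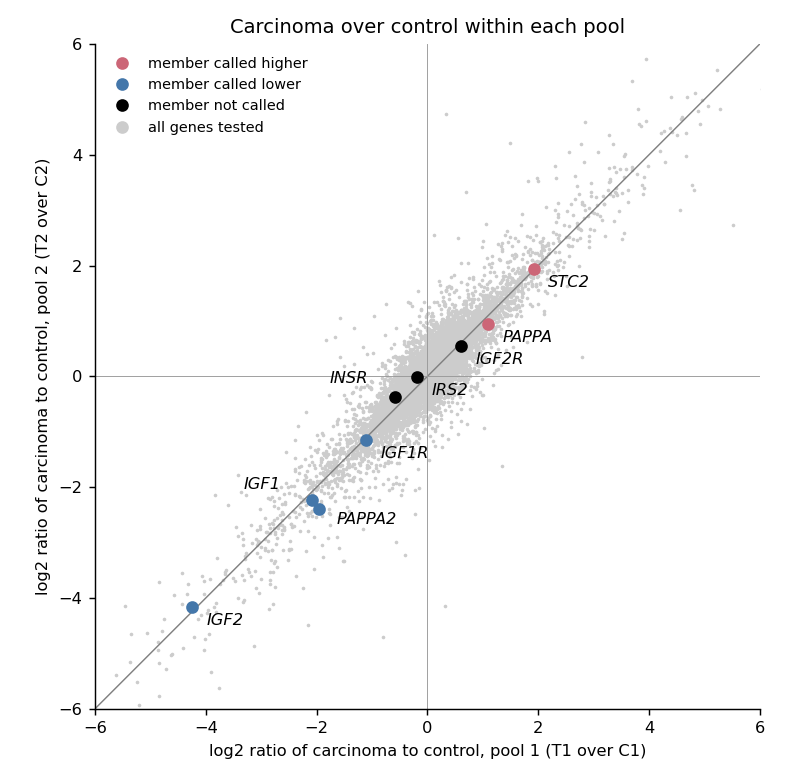
Log2 of T1 over C1 (x axis, pool 1) against log2 of T2 over C2 (y axis, pool 2), with gray points for the genes tested and the 9 genes named. The axes end at 6 in each direction, which leaves 42 genes outside. The 9 genes lie along the diagonal from IGF2 (−4.25 and −4.17) to STC2 (1.92 and 1.93).

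The ligands differed between pools in opposite ways. For IGF2 the log2 offset of pool 2 minus pool 1 was 0.70 in control and 0.79 in carcinoma, above that of 89.1% and 90.3% of the 11253 genes with a mean of at least 50 counts. For IGF1 the offset was −0.26 and −0.41, with 22.9% and 8.38% of those genes below it. INSR was also higher in pool 2, by 0.26 and 0.47, whereas STC2 had offsets of −0.00429 and 0.00983. With 1 library per pool and tissue these offsets have no replicate, and dogs and sequencing depth cannot be told apart in them.

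Ratios of raw counts between genes of the same library do not depend on how libraries are scaled, and 10 such pairs were compared. The groups did not overlap in any of them, but an exact two-sided permutation test with 2 libraries against 2 cannot give a p below 0.333, which all 10 reached. Adjustment over the pairs leaves that value as it is, so the ratios are a description. Gene length cancels when a ratio is compared between libraries, while a ratio itself does not compare the levels of its genes.

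IGF1R was matched by fewer ligand counts in carcinoma. There were 0.139 IGF1 counts per IGF1R count in C1 and 0.111 in C2, against 0.0707 in T1 and 0.0523 in T2, a 2.05-fold fall. IGF2 counts per IGF1R count went from 0.0814 in C1 and 0.127 in C2 to 0.00916 in T1 and 0.0155 in T2, 8.51-fold lower. The widest shift was that of IGF2 against its clearance receptor, from 0.302 IGF2 counts per IGF2R count in C1 and 0.415 in C2 to 0.0103 in T1 and 0.0157 in T2, 27.8-fold lower. IGF1 was counted 1.71 times as often as IGF2 in C1 and 0.876 times in C2, against 7.72 times in T1 and 3.36 times in T2. The carcinomas thus differed from each other by more than the lower carcinoma differed from the higher control.

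The receptors and the adaptor also shifted against each other. IGF2R counts per IGF1R count were 0.270 in C1 and 0.306 in C2, and 0.889 in T1 and 0.990 in T2, a 3.27-fold rise. IRS2 counts per IGF1R count were 0.0708 and 0.0696 in the controls and 0.134 and 0.152 in the carcinomas, a 2.03-fold rise. IGF1R counts per INSR count were 15.2 in C1 and 13.3 in C2, against 10.6 in T1 and 7.82 in T2, a fall of 1.56-fold that was the smallest of the 10 shifts.

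Among the protease genes, PAPPA was counted 4.04 and 3.71 times as often as PAPPA2 in the controls and 33.9 and 38.2 times as often in the carcinomas, a 9.30-fold rise. STC2 counts were higher in carcinoma relative to both protease genes. STC2 counts per PAPPA count were 0.739 in C1 and 0.684 in C2, and 1.31 in T1 and 1.35 in T2, a 1.87-fold rise. Against PAPPA2 the ratio of STC2 was 2.99 and 2.54 in the controls and 44.4 and 51.7 in the carcinomas, 17.4-fold higher.

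**Figure D4:**
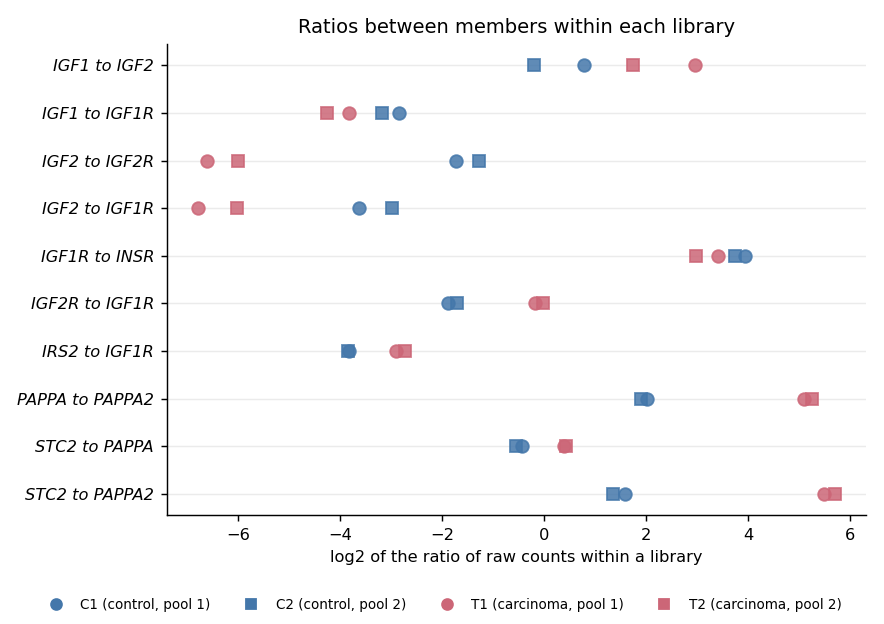
Log2 of the ratio of raw counts of 2 genes within a library (x axis) for 10 pairs (rows), with blue for control, red for carcinoma, circles for pool 1 and squares for pool 2. The carcinoma points lie apart from the control points in each row, farthest for IGF2 to IGF2R (27.8-fold).

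Of the binding proteins that the pappalysins and ligands act with, 5 of 8 listed genes were measured, 1 upregulated and 1 downregulated. IGFBP5, a substrate of both proteases, rose from 38.9 ± 8.60 CPM (SD, n = 2) to 479 ± 198 CPM in carcinoma (log2 fold change 3.64, adjusted p = 0.00503), and IGFBP6, which prefers IGF2, fell from 22.0 ± 7.89 to 5.90 ± 1.34 CPM (−1.93, adjusted p = 0.0319). The IGFBP6 call was lost without C2 (−1.52, adjusted p = 0.0794), without T1 (−1.71, adjusted p = 0.0966) and with library totals in place of TMM (−1.92, adjusted p = 0.0675). IGFBP4, the best known PAPPA substrate, was read at 58.8 CPM in C1 and 135 CPM in C2, against 27.4 CPM in T1 and 59.5 CPM in T2, and its groups overlapped. With edgeR and no block it was not called in the 4 libraries (log2 fold change −1.19, adjusted p = 0.226), but it was called lower with the replicate block (−1.13), by DESeq2 (−1.20, adjusted p = 0.0421) and without T2 (−1.80, adjusted p = 0.0139). IGFBP2 was not called in the 4 libraries either (log2 fold change 1.69, adjusted p = 0.177), and it was called higher with the block (1.63), without C2 (2.50, adjusted p = 0.0428) and without T1 (2.21, adjusted p = 0.0284).

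Upstream of IGF1, the genes of the growth hormone receptor signal had a median log2 fold change of −0.89 over 6 measured genes, beside 0.03 over all genes tested. STAT5A, a transcription factor gene of that signal, was downregulated (log2 fold change −1.26, adjusted p = 0.0287) and 5 did not reach both thresholds. The STAT5A call was lost without C2 (−0.99, adjusted p = 0.0360), without T1 (−1.09, adjusted p = 0.0552) and with library totals (−1.24, adjusted p = 0.0769). Without C1, without T2 and without the 10 most abundant features 2 genes of the list were called lower, STAT5A and STAT5B. GHR, the growth hormone receptor gene, went from 248 ± 5.01 CPM (SD, n = 2) to 129 ± 17.7 CPM, and its log2 fold change of −0.93 (adjusted p = 0.0136) was past the threshold on p but not on size. Without T1 GHR was called lower (−1.13, adjusted p = 0.0177). STAT5B was at −0.97 (adjusted p = 0.0104) and SOCS2, a feedback inhibitor gene, at 0.74 (adjusted p = 0.0211). Milk secretion markers moved with these genes, 7 of 10 measured being downregulated and 2 upregulated, with a median log2 fold change of −2.43. CSN1S1, a casein gene, fell by 8.11 on the log2 scale (adjusted p = 0.000891) and LALBA, the α-lactalbumin gene, by 6.95 (adjusted p = 0.00182), while LTF, the lactoferrin gene, rose by 2.99 (adjusted p = 0.00339). The summed level of the list, most of it LTF in carcinoma, was 2540 CPM in C1 and 2031 in C2 against 3336 in T1 and 4280 in T2. The part of secretory cells in the fall of STAT5A and of IGF1 was not tested. Among 12 measured extracellular and receptor-proximal genes, ENPP1, whose product inhibits the insulin receptor, was downregulated (log2 fold change −1.34, adjusted p = 0.00766) and 11 were not called. PTPN11, a phosphatase gene of receptor signaling, was at 0.78 (adjusted p = 0.0132).

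Downstream of the receptors, 13.3% of the measured genes were called in the PI3K, AKT and mTOR branch and 5.26% in the RAS and MAPK branch. Over all genes tested the share was 9.86%. In the PI3K, AKT and mTOR branch 2 of 30 measured genes were upregulated, 2 were downregulated and 26 did not pass, with a median log2 fold change of 0.04. The upregulated genes encode regulatory subunits of PI3K, PIK3R1 (log2 fold change 1.48, adjusted p = 0.00650) and PIK3R3 (1.21, adjusted p = 0.00650). The downregulated ones encode negative regulators, DEPTOR, an inhibitor of mTOR (−1.65, adjusted p = 0.00235), and INPP4B, a lipid phosphatase that opposes PI3K (−1.43, adjusted p = 0.00596). In the RAS and MAPK branch 1 of 19 measured genes, MAP2K1, which encodes a MAPK kinase, was upregulated (1.03, adjusted p = 0.00946), and 18 did not pass. Without C1 MAP2K1 came to 0.85 (adjusted p = 0.0446) and without the 10 most abundant features to 0.98 (adjusted p = 0.0117), both under the threshold on size. FOXO factors are transcription factors that PI3K signaling keeps out of the nucleus. Of 14 measured target genes of theirs, 3 were downregulated and 1 was upregulated. PDK4, a brake on glucose oxidation, fell the most (−2.91, adjusted p = 0.00189), TXNIP fell by 1.14 on the log2 scale (adjusted p = 0.00865) and TRIM63, a ubiquitin ligase gene of muscle, fell by 1.76 (adjusted p = 0.0272), while the cell cycle inhibitor gene CDKN1A rose by 1.99 (adjusted p = 0.0348). The call of TRIM63 was lost without any one of the 4 libraries (adjusted p from 0.0579 to 0.141) and that of CDKN1A without C1, C2 or T2 (adjusted p from 0.0706 to 0.119), while PDK4 and TXNIP were called in every alternative. The striated muscle markers given above moved with these genes, and their part was not tested.

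IGF2 is an imprinted gene, and 8 other listed imprinted genes were measured. Of these 4 were downregulated and 1 was upregulated, a share of 62.5% called beside 9.86% over all genes. The list of 19 genes was chosen with earlier results of these data known, so this share is a description. SGCE, which encodes a sarcoglycan, fell from 35.7 ± 9.85 CPM (SD, n = 2) to 5.50 ± 1.05 CPM (log2 fold change −2.66, adjusted p = 0.00714). PEG3, PEG10 and MEST fell as well, with log2 fold changes of −1.25, −1.41 and −1.83 (adjusted p = 0.0122, 0.0157 and 0.0358), and NNAT rose from 1.30 ± 0.453 to 8.28 ± 3.86 CPM (2.74, adjusted p = 0.0310). SGCE and PEG3 were called in every alternative. PEG10 lost its call without C1, C2 or T1 (adjusted p from 0.0509 to 0.0918), MEST without C1, C2 or T2 (adjusted p from 0.0831 to 0.103) and NNAT without C1 (2.21, adjusted p = 0.174), so that 2 were lower without C1 and 2 without C2. With library totals in place of TMM, MEST and NNAT also missed the threshold (adjusted p = 0.0501 for both). The counts do not separate the parental alleles. IGF2BP2, which encodes a protein that binds IGF2 mRNA, was the measured gene of its family and was downregulated (log2 fold change −1.89, adjusted p = 0.0275), a call that was lost without C1, C2 or T1 (adjusted p from 0.0688 to 0.131).

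The lists, chosen with earlier results known, differed in the share called, which was 62.5% for imprinted genes and 0% for the unfolded protein response. Over all these lists, with the hypoxia and unfolded protein response genes included and each gene counted once, 118 genes were measured besides the 9. Of these, 11 were upregulated and 13 downregulated, a share called of 20.3% beside 9.86% over all genes tested. Without C1 the upregulated genes numbered 4 and the downregulated 10.

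**Figure D5:**
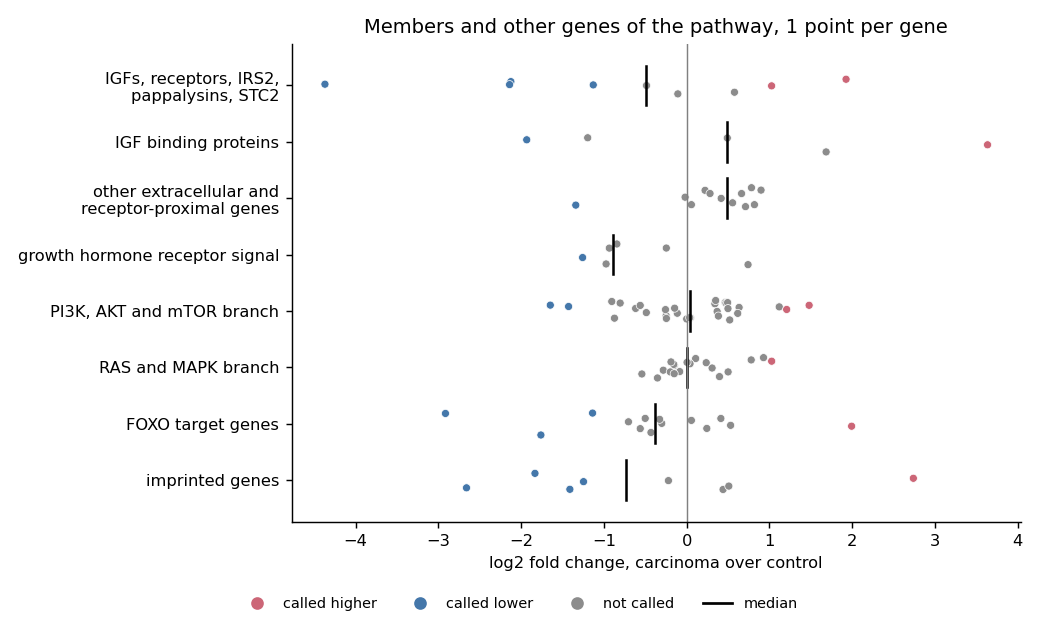
Log2 fold change of carcinoma over control (x axis) of each measured gene, 1 point per gene, in the 9 genes described here and in 7 lists of other genes (rows), with red for upregulated, blue for downregulated and gray for genes not called. Black bars mark the medians, which lie at 0.04 for the PI3K, AKT and mTOR branch and at 0.01 for the RAS and MAPK branch.

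Genes with a pattern over the 4 libraries most like that of each member were found by the root mean square distance between log2 CPM values centered on each gene's mean, where 0 is an identical pattern. For STC2 these were GNA14, FBLN7 and BMPR1B, at distances of 0.014, 0.044 and 0.052. The nearest to IGF1 were GABBR2 (0.034), HEPACAM2 (0.037) and ADCY8 (0.063). IGF2 had no neighbor as near, with HTRA3 at 0.18, SLC5A5 at 0.21 and ADCYAP1R1 at 0.23. In T2 these neighbors rest on 13, 3 and 10 counts and IGF2 on 22, so counting error enters these distances. Among the 9 genes themselves, IGF1 and PAPPA2 were the closest pair (0.19) and IGF2 and STC2 the most distant (3.09). With 4 libraries in 2 groups, genes of like fold change come out as near neighbors, so the distances are a description with no test.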

How the data were processed

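Total RNA of mammary ductal carcinoma and adjacent tissue was sequenced by the authors (TruSeq Stranded Total RNA kit, NextSeq 500) from 4 pools. The deposited tables hold raw counts, 1 whole number per gene and library, together with a gene length. For mapping and counting, the study's methods name TopHat2 and HTSeq, and the submitters' processing notes STAR and featureCounts. Genome build and strand setting were not given in the sources used here, and no coordinates or sequences are printed. The deposited lengths had a median ratio of 0.970 to the gene spans of the RefSeq table of assembly UU_Cfam_GSD_1.0, in which all 9 symbols matched. Spans include introns, so intronic reads may have been counted, and a level may then hold unspliced RNA. In that table other genes overlap IGF1, IGF2, IGF1R, IGF2R and PAPPA2, and without a known strand setting their reads cannot be told apart.

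The counts went into edgeR 4.0.16 under R 4.3.3 (low-count filter filterByExpr, which all 11277 genes passed, TMM, quasi-likelihood test, Benjamini-Hochberg adjustment over all genes) and, as an alternative, DESeq2 1.42.0. Standard errors are the absolute log2 fold change over the square root of F. Ratios of carcinoma to control within a pool used log2 CPM with a prior count of 0.5. The 2 libraries of a pool share their dogs by the study's account, and how far they lay from their group means was correlated (0.754 across genes, not a test). The replicate block lowered the common dispersion from 0.0508 to 0.00216 and the residual degrees of freedom from 2 to 1. Replicates were distinct libraries (chi-square over its degrees of freedom 46.0 for the controls and 31.7 for the carcinomas). The scripts were tested on simulated data. Figures were drawn with matplotlib 3.10.9.

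The 9 genes and all lists were chosen with earlier results of these data known. Named were the 9 genes, up to 4 genes of a list with the smallest adjusted p, and for each member the 3 nearest genes with a symbol, of which those of 3 members are given. IGFBP4, IGFBP2, MEST and the genes named from marker lists were named besides, after their values were seen, where they fell outside that rule. Alternatives were other scalings, filters and tests, the block, and leaving out each library. Intervals on counts cover counting error only.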

Additional observations from a re-analysis of the deposited data

How the results depend on the processing

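In the fit with the replicate block, 800 genes were upregulated over all genes against 521 without it. The calls of the 9 genes were the same in that fit and in DESeq2 with the block. IGF1, IGF2, IGF1R and STC2 were called in each of the 12 alternatives run, and IGF2R, INSR and IRS2 in none, with no change of sign for any of the 9. Log2 fold changes ranged from −4.72 to −3.90 for IGF2, from −2.42 to −1.97 for IGF1, from −1.21 to −1.10 for IGF1R and from 1.88 to 1.97 for STC2. PAPPA lost its call in 3 alternatives (range 0.92 to 1.08) and PAPPA2 in 1. Without the 10 most abundant features 1 of the 9 genes was called higher instead of 2, since PAPPA came to 0.98 against the threshold of 1. Leaving out 1 library at a time, between 1 and 2 of the 9 genes were called higher and between 3 and 4 lower, with 342 to 509 genes upregulated over all genes and 4 to 11 over the pathway lists. In those fits the lone library of a group is assumed to vary like the other group. Dropping filterByExpr, or requiring a mean of at least 20 counts, gave the 9 genes the same values as the fit without the block. No gene had been removed by filterByExpr. Both alternatives, counted among the 12, thus repeated that fit and do not test the choice of filter. The ratios moved by less than the spread between pools when 0.5 was added to each count. Depth limits PAPPA2 and IGF2 the most, at 6 and 22 counts in T2.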
